A study of Mus musculus with 7 samples.

Results

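The 37 genes described here encode carriers of amino acids across membranes and the enzymes that break amino acids down, 14 carriers and 23 enzymes or their regulator. They were taken by name from the GENCODE annotation of the mouse genome, out of 21938 protein-coding genes. For each gene, peaks were read in a window that covered the gene body and 10 kb to each side of every annotated transcription start site (TSS). Protein-bound DNA had been isolated by chromatin immunoprecipitation (ChIP) from gastrocnemius, the large calf muscle, of male wild-type C57BL/6J mice and sequenced. BMAL1, the activator of the circadian clock, was mapped at Zeitgeber time (ZT) 4, which counts hours from lights on. The nuclear receptor REV-ERBα, a clock repressor, was mapped at ZT 8 and RNA polymerase II (RNAP2) at ZT 4. Each factor had 2 biological replicates, each with its own list of peaks, and input DNA had served as the background for peak calling. The 1 input sample of the series is listed at ZT 4, not at the ZT 8 of REV-ERBα. The mice are labelled wild-type controls. The methods describe the controls as littermates without the Cre transgene, from a cross that carried a floxed Bmal1 allele, and as a rule 3 to 5 months old, while the labels give no age. Each factor was sampled at a single time, and the chromatin came from whole muscle, so the lists describe neither a daily rhythm nor the muscle fibre alone.

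Skeletal muscle holds the largest pool of protein in the body and exchanges amino acids with the blood through carriers of the solute carrier (SLC) families. It is a main site where the branched-chain amino acids leucine, isoleucine and valine are degraded: an aminotransferase removes the amino group, a mitochondrial dehydrogenase complex commits the keto acid to oxidation, and separate enzymes carry each carbon chain on to acyl-CoA products. The amino groups leave muscle largely as alanine and glutamine, which the alanine aminotransferases and glutamine synthetase make. RNAP2 peaks mark genes where the polymerase is held or engaged, most strongly near the TSS.

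A region was counted for a factor where peaks of both replicates overlapped by at least 1 bp. Its strength was the lower of the replicates' −log10 p, the peak caller's measure of how far the signal stood above input. The lists differed in length, from 28881 peaks for REV-ERBα replicate 1 to 177669 for BMAL1 replicate 2. Few peaks reached a q-value of 0.05, between 0.0203% of the list for BMAL1 replicate 2 and 12.5% for RNAP2 replicate 1. The −log10 p values were coarse, since the most frequent single value held between 20.7% and 31% of each list, so a value is also given by the share of its own list with a higher one. RNAP2 regions were present at 10 of 10 muscle fibre marker genes, at 0 of 3 adipocyte and 0 of 3 hepatocyte markers, at 2 of 4 immune, 1 of 4 endothelial, 2 of 3 fibroblast and 1 of 2 Schwann cell markers. Of the protein-coding genes outside the 37, 41.1% had such a region. Within 1 kb of a TSS the immune count was 1 of 4 and the endothelial count 0 of 4, and the other counts were unchanged. The part of cells other than fibres in the results below was not tested, and fewer cells of a type and less binding per cell cannot be told apart. With 2 lists per factor and no read counts, no test over animals was possible, and the genes are described by counts beside the share of other genes that met the same rule.

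RNAP2 occupied most of the amino acid genes. A region in both replicates was present at 26 of the 37 genes (70.3%), against 41.1% of the other 21901 protein-coding genes. Within 1 kb of a TSS such a region was present at 23 genes (62.2%), against 30.5% of the others. With a q-value of 0.05 or less in each replicate it was present at 18 genes (48.6%), against 18.9%. Among genes that had a region, the median strength was 6.56 for the 26 genes and 4.47 for the 9001 others. The gene windows had a median length of 46.9 kb for the 37 genes, 30.2 kb for the 21901 others and 37.1 kb for the 9001 with RNAP2, so the count over the whole window had more room to find a peak than the count within 1 kb.

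**Figure D1:**
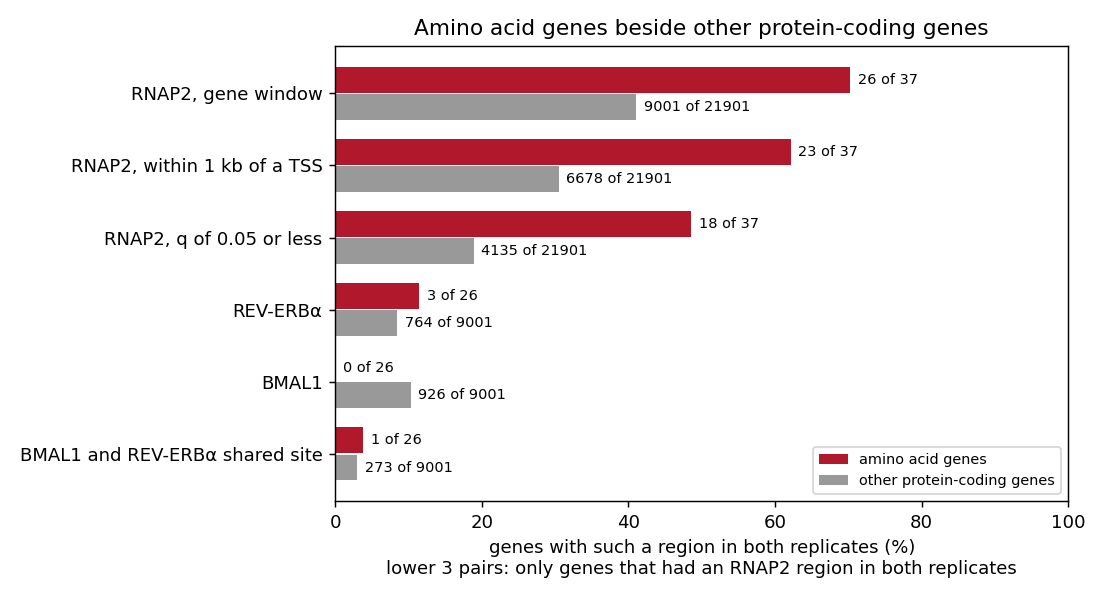
Share of genes with a region in both replicates, in percent, for the amino acid genes (red) and other protein-coding genes (grey), with the counts beside each bar. The upper 3 pairs are over all genes and the lower 3 over genes with an RNAP2 region. The red bar is longer for RNAP2 under each of the 3 rules (70.3%, 62.2% and 48.6% against 41.1%, 30.5% and 18.9%), while for REV-ERBα (11.5% against 8.49%) and for shared sites (3.85% against 3.03%) the bars are close, and for BMAL1 no amino acid gene with RNAP2 was called.

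By role the groups were small, and a region in both replicates was present at 41.1% of the other protein-coding genes. All 9 enzymes of distal branched-chain oxidation had a region in both replicates, as did 4 of 5 enzymes of alanine, glutamine, glutamate and asparagine metabolism and 3 of 3 enzymes of lysine, ornithine and proline breakdown. Of the 6 genes of branched-chain transamination and the dehydrogenase, 4 had one. Within 1 kb of a TSS these counts were 8 of 9, 4 of 5, 2 of 3 and 3 of 6, in the same order, against 30.5% of the other genes. The carriers were divided: 3 of 4 large neutral amino acid exchangers with their heavy chain, 2 of 5 sodium-coupled neutral carriers, 1 of 2 glutamate and neutral carriers of the SLC1 family, 0 of 2 cationic carriers and 0 of 1 proton-coupled carrier. Within 1 kb of a TSS the counts of carriers were the same. The 10 strongest genes were Glul, Slc38a2, Aldh6a1, Glud1, Slc1a5, Oat, Slc38a3, Prodh, Mccc2 and Bcat2. Across the 26 genes the strength ranged from 1.99 to 22.61, and the 2 replicates ranked the genes with a Spearman correlation of 0.70, given as a description because the genes share the same libraries. The value was higher in replicate 1 at 21 genes and in replicate 2 at 5.

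**Figure D2:**
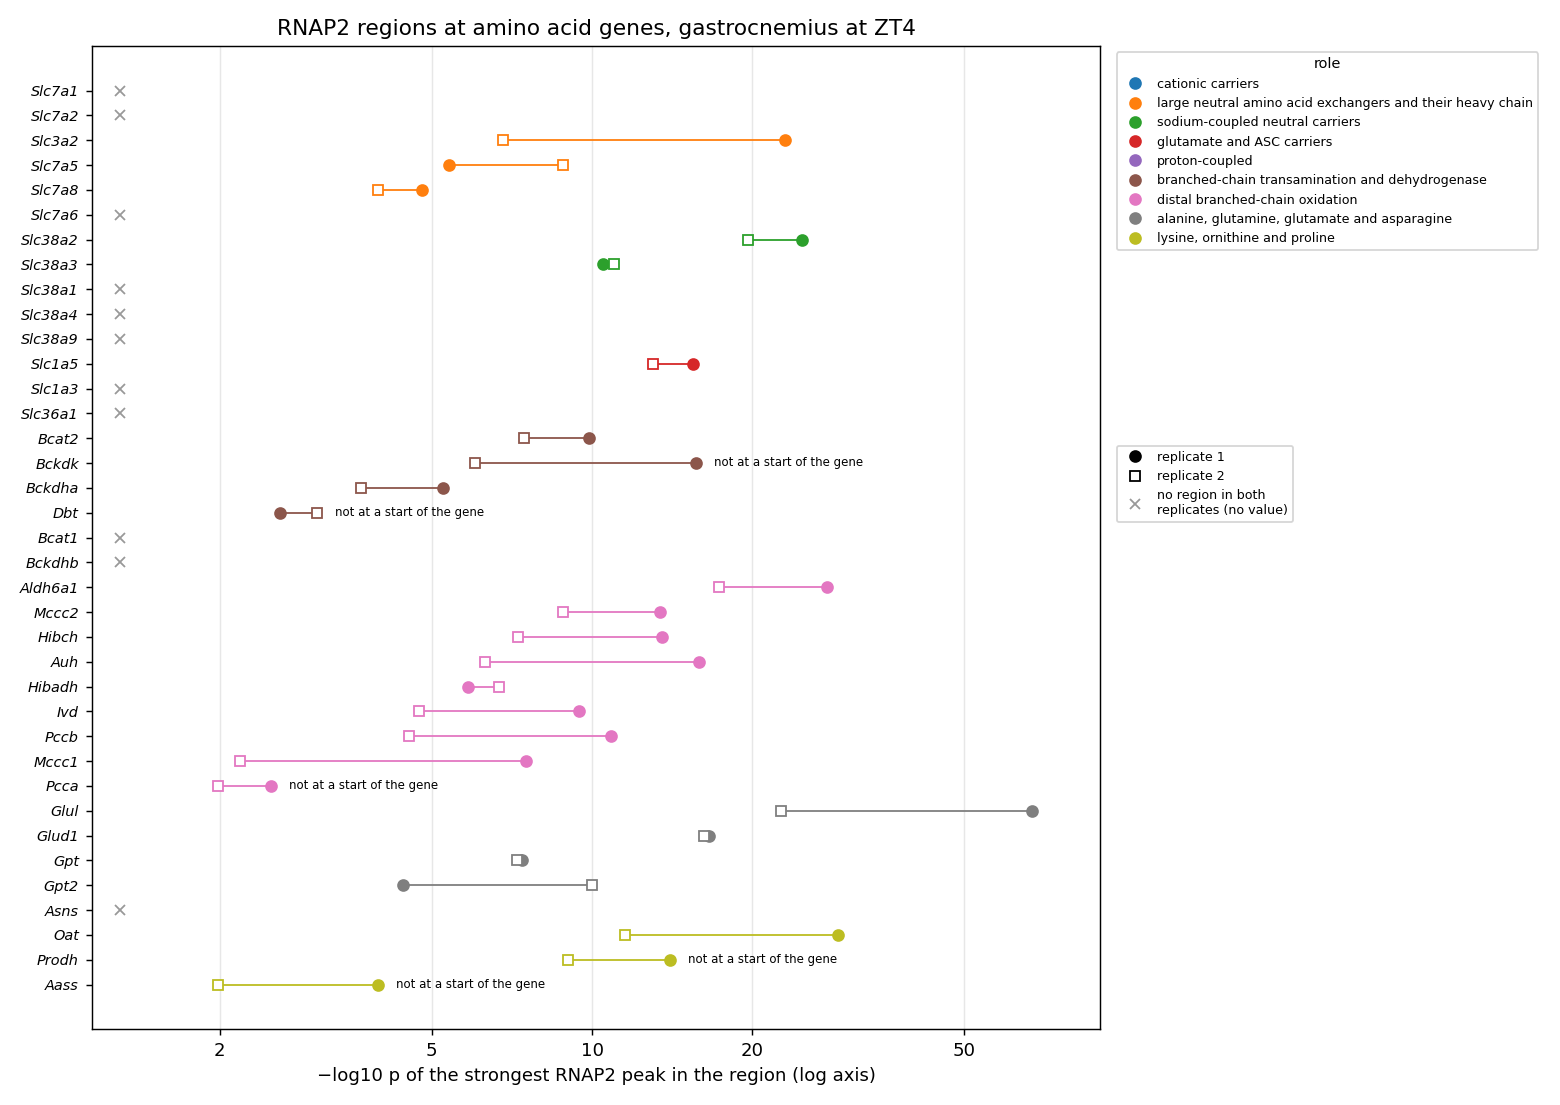
RNAP2 at the 37 genes, grouped and coloured by role, with −log10 p of the strongest region on a logarithmic axis. Filled circles are replicate 1, open squares replicate 2, and crosses mark the 11 genes without a region in both replicates. Glul lies farthest to the right in both replicates, at 67.00 and 22.61. By the lower value Slc38a2, Aldh6a1, Glud1 and Slc1a5 follow. The strongest regions of Bckdk, Dbt, Pcca, Prodh and Aass do not lie at a start of the gene itself.

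Because the promoters are where RNAP2 was read, the sequences before the TSS of 3 genes are shown. Glul had the strongest RNAP2 signal of the set, Mccc2 carries a canonical E-box close to its TSS, and Asns, which had no RNAP2 region in both replicates, carries the ATF4 motif. Each is the 250 bases before the RefSeq start in GRCm38, 5′ to 3′ on the strand of the gene. Capitals mark 4 motifs searched on both strands: CACGTG, the E-box of BMAL1 and CLOCK, AGGTCA, the half-site of nuclear receptors such as REV-ERBα, CAGCTG, an E-box of myogenic factors, and TGATGNAA, the core of ATF4 and C/EBP composite sites. The patterns overlap one another in none of these stretches.
Glul, chr1:153899679-153899928, plus strand: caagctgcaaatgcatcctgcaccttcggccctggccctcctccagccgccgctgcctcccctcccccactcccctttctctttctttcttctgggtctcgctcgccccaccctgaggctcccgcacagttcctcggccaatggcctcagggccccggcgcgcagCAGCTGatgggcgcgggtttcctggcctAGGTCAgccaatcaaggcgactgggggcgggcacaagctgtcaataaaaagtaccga
Mccc2, chr13:100015640-100015889, minus strand: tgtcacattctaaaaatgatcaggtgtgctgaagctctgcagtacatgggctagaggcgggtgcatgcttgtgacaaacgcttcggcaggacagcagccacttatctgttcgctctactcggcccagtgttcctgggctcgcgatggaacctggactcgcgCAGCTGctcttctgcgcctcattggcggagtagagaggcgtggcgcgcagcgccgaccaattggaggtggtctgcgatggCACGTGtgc
Asns, chr6:7693210-7693459, minus strand: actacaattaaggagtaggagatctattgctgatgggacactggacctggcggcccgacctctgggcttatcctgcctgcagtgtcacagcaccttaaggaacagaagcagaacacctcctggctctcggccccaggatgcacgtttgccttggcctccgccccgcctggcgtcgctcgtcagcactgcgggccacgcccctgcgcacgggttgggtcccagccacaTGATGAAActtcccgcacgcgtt

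The AGGTCA match in Glul began 57 bases before the TSS and its CAGCTG match 85 bases before it. The E-box of Mccc2 began 9 bases before the TSS and the ATF4 core of Asns 23 bases before it. RefSeq promoter windows of 250 bases before to 50 bases after the TSS were matched for 30 of the 37 genes, with 39 windows in all. AGGTCA was present in 9 of the 39 (23.1%), against 16.3% of all 32851 promoter windows. CAGCTG was present in 6 (15.4%) against 16.3%, CACGTG in 2 (5.13%), those of Mccc2 and Slc36a1, against 7.15%, and TGATGNAA in 1 (2.56%), that of Asns, against 3.97%. A match describes the letters only.

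Among the enzymes of nitrogen handling, Glul, glutamine synthetase, had an RNAP2 region at chr1:153899630-153900387. The −log10 p was 67.00 in replicate 1 and 22.61 in replicate 2, with a fold enrichment over input of 21.70 and 9.43. Both summits lay within the first bases of the gene, 22 and 54 bp after the nearest TSS. Only 2.35% of all genes with an RNAP2 region, the 26 amino acid genes included, had a stronger one. The region also lies within 1 kb of a TSS of Teddm2, and signal of the 2 genes cannot be told apart there. In the clock lists Glul had a BMAL1 peak of at most 3.60 in replicate 2, a REV-ERBα peak of 2.72 in replicate 2, and no peak in replicate 1 of either factor.

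Glud1, glutamate dehydrogenase, which releases ammonium from glutamate, had RNAP2 values of 16.59 and 16.22, the closest pair among the 10 strongest genes. The summits lay 454 bp apart, however, and no region remained when summits had to lie within 250 bp. The region at chr14:34310122-34311070 also lies within 1 kb of a TSS of Shld2. It had no peak in BMAL1 replicate 1 or REV-ERBα replicate 1, and its strongest peaks in the other replicates were 2.40 for BMAL1 and 3.18 for REV-ERBα.

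The alanine aminotransferases transfer an amino group from glutamate to pyruvate. At Gpt, the cytosolic enzyme, 3 RNAP2 regions were present, of which the strongest, at chr15:76695457-76696985, had values of 7.38 and 7.22. A region farther downstream, with 7.52 and 2.65, lies within 1 kb of a TSS of Mfsd3. At Gpt2, the mitochondrial enzyme, the strongest region had a −log10 p of 4.42 in replicate 1, the lower one, with fold enrichments of 3.51 and 5.53 and −log10 q of 1.35 and 5.88. Asns, asparagine synthetase, had RNAP2 peaks in single lists only, at most 3.91 in replicate 1 and 1.99 in replicate 2, together with 1 BMAL1 peak of 2.40 and 1 REV-ERBα peak of 2.64, each in replicate 2.

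Branched-chain breakdown begins with Bcat2, the mitochondrial branched-chain aminotransferase. Its promoter region, chr7:45570039-45570607, had RNAP2 values of 9.85 and 7.45. A second, weaker RNAP2 region (4.71 and 3.26) lay about 2 kb upstream, at chr7:45567701-45568668, and overlaps the body of Hsd17b14. Bcat1, the cytosolic isoenzyme, had no RNAP2 region in both replicates, with single peaks of at most 3.21 and 3.26. The 2 aminotransferase genes thus stood on different sides of the rule.

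The dehydrogenase that follows is built from E1 subunits (Bckdha and Bckdhb) and an E2 core (Dbt), and the kinase Bckdk switches it off. At Bckdha the RNAP2 region had values of 5.24 and 3.69 and also lies within 1 kb of a TSS of Exosc5. Bckdhb had 10 RNAP2 peaks in each replicate within its window of 209096 bp, up to 8.86 in replicate 1 and 3.26 in replicate 2, but none of them overlapped between replicates. Dbt had a region of 2.60 and 3.05 that lies within 1 kb of a TSS of Rtca, not of Dbt. At Bckdk the region at its own TSS was weak (3.20 and 3.51), and the stronger one (15.68 and 6.04) lies downstream of the gene within 1 kb of a TSS of Kat8. No subunit gene of the complex had an RNAP2 strength above 3.69.

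All 9 genes of the later steps had RNAP2, 8 of them at a TSS. The strongest was Aldh6a1, methylmalonate semialdehyde dehydrogenase of valine breakdown, with 27.65 and 17.34 at chr12:84450477-84451165. Its summits fell within 3 bp of a TSS of Aldh6a1, and a TSS of Lin52 also lies within 1 kb. Aldh6a1 had no REV-ERBα peak in either replicate and a single BMAL1 peak of 1.87. Mccc2, a subunit of the leucine pathway's methylcrotonyl-CoA carboxylase, had RNAP2 values of 13.40 and 8.82 at the promoter printed above, while Mccc1, the partner subunit, had 7.52 and 2.18. For Mccc1 the value in replicate 2 was exceeded by 40.8% of that list. Mccc2 had BMAL1 peaks of at most 2.01 and 2.98 and a REV-ERBα peak of 2.50 in replicate 1 only, none of which made a region.

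Hibch and Hibadh, the hydrolase and dehydrogenase of hydroxyisobutyrate in valine breakdown, had RNAP2 values of 13.51 and 7.26, and of 5.85 and 6.69. Auh, the hydratase of leucine breakdown, had 15.86 and 6.31, and Ivd, isovaleryl-CoA dehydrogenase, 9.46 and 4.73. The subunits of propionyl-CoA carboxylase were unlike each other. Pccb had 10.86 and 4.54 at its TSS, whereas the single region of Pcca lay in an intron with values of 2.50 and 1.99, exceeded by 65.6% and 41.5% of the lists. Pcca has by far the longest window of the set, 372580 bp, with 13 RNAP2 peaks in replicate 1 and 30 in replicate 2.

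Of the remaining enzymes, Oat, ornithine aminotransferase, had RNAP2 values of 28.91 and 11.55 at its TSS, within the annotated extent of Fgfr2. Oat had no REV-ERBα peak in either replicate, and its BMAL1 peaks, 1 of 3.0 in replicate 1 and 3 of at most 3.60 in replicate 2, did not make a region. Prodh, proline dehydrogenase, had its strongest region (14.02 and 9.03) in an intron within 1 kb of a TSS of Dgcr6. The region at its own TSS had 4.79 and 7.22. Prodh had BMAL1 and REV-ERBα peaks in replicate 2 only, up to 2.98 and 2.90. At Aass, the first enzyme of lysine breakdown, the only region lay in an intron and was weak (3.97 and 1.99).

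Among the carriers, Slc38a2, the amino acid-regulated SNAT2 carrier of small neutral amino acids, had the strongest RNAP2 signal. The region at chr15:96698719-96700241 had values of 24.80 and 19.62, with fold enrichments of 10.31 and 8.39. Of all genes with an RNAP2 region, the amino acid genes included, 3.28% had a stronger one. A second RNAP2 region, at chr15:96709576-96710286, lay about 10 kb upstream at the edge of the window, with 7.17 and 8.69. Slc38a3, the SNAT3 glutamine carrier, had nearly equal values of 10.50 and 10.98. Slc38a1, Slc38a4 and Slc38a9, the last a lysosomal amino acid sensor, had none in both replicates, and their single RNAP2 peaks reached at most 3.76.

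Slc1a5, the ASCT2 glutamine exchanger, had RNAP2 values of 15.48 and 13.01 at its TSS, no REV-ERBα peak in either replicate and BMAL1 peaks of at most 2.98 in replicate 2 only. Slc38a3 had single peaks of 1.87 for BMAL1 in replicate 2 and of 2.50 for REV-ERBα in replicate 1. Slc1a3, a glutamate transporter best known from glia, had 7 RNAP2 peaks in each replicate, up to 3.97 and 4.41, and none overlapped. For the exchangers of large neutral amino acids, the heavy chain Slc3a2 had 23.06 and 6.82 at the stronger of its 2 TSS regions. Its light chains Slc7a5 (LAT1) and Slc7a8 (LAT2) had 5.39 and 8.83, and 4.79 and 3.97. Slc7a6, a further light chain, had no region, with peaks of at most 3.21 and 2.60.

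The cationic carriers import arginine, lysine and ornithine. Slc7a2 had no region in both replicates for any of the 3 factors. RNAP2 replicate 1 had 1 peak of 3.97 in an intron, and replicate 2 had 4, up to 4.73, of which 1, of 3.26, lay at the TSS. Its strongest BMAL1 peaks were 2.48 and 2.98, the latter in an exon 19053 bp from the nearest TSS, and its 4 REV-ERBα peaks, all in replicate 1, reached 2.50. Slc7a1 had an RNAP2 peak of 5.65 in replicate 1 and peaks up to 2.60 in replicate 2 that did not overlap it. Slc36a1, the proton-coupled carrier PAT1, had peaks up to 6.25 in replicate 1 and 1.99 in replicate 2.

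Regions of the clock factors were few. REV-ERBα had a region in both replicates at 3 of the 37 genes, Bcat2, Gpt and Pcca. These are 8.11% of the 37, against 4.44% of the 21901 other genes. Over genes with RNAP2 they are 11.5% of the 26, against 8.49% of the 9001 others, a share near the background. With 3 genes, both shares are a description only. BMAL1 had a region in both replicates at 1 gene, Bckdhb (2.7% of the 37, against 6.82% of the 21901). Over genes with RNAP2 it had one at 0 of the 26, against 10.3% of the 9001. Shared sites were merged sites that held a peak of 3 or more among the 4 lists of BMAL1 and REV-ERBα. Such a site was present at 1 gene, Pcca (3.85% of the 26 with RNAP2, against 3.03% of the 9001). Of the clock genes used to set the scale, which the study had singled out for binding, 9 of 11 had a REV-ERBα region, 11 of 11 a BMAL1 region and 11 of 11 a shared site.

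Single lists held many more peaks at these genes, at shares near those of other genes. Over genes with RNAP2, BMAL1 replicate 1 had a peak in the window of 11 of the 26 (42.3%, against 48.3% of the 9001 others). BMAL1 replicate 2 had one at 25 of the 26 (96.2%, against 93.1%). Over all 37 genes the BMAL1 counts were 17 and 36. REV-ERBα replicate 1 had one at 13 of the 26 (50%, against 49.8%) and replicate 2 at 15 (57.7%, against 52.7%). Over all 37 genes the REV-ERBα counts were 18 and 22.

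Of the 11 genes without an RNAP2 region, Bckdhb had the BMAL1 region and is described below. The others carried peaks of the clock factors that made no region in both replicates. Bcat1 had 1 REV-ERBα peak in each replicate, of 3.02 and 3.75, which did not overlap, and 11 BMAL1 peaks of at most 2.98 in replicate 2. Slc38a1 had BMAL1 peaks of at most 2.13 and 2.40 and REV-ERBα peaks of at most 3.18 in replicate 2 only. Slc38a9 had 2 BMAL1 peaks of at most 3.0 in replicate 1 and 5 of at most 2.40 in replicate 2, with REV-ERBα peaks of at most 2.02 in replicate 1 only.

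Slc38a4 had a BMAL1 peak of 2.00 in replicate 1 and 8 of at most 3.60 in replicate 2, and 1 REV-ERBα peak of 2.15 in replicate 2. Slc36a1 had 10 BMAL1 peaks of at most 2.98 in replicate 2, 1 of 2.15 in replicate 1, and 3 REV-ERBα peaks of at most 3.18 in replicate 2. Slc7a1, Slc7a6 and Slc1a3 had BMAL1 peaks in replicate 2 only, of at most 2.98, 1.87 and 3.53. For REV-ERBα, Slc7a1 had 1 peak of 2.50 in replicate 1, Slc1a3 had 1 of 2.15 in replicate 2, and Slc7a6 had none. In each of these genes the peaks of a factor fell at different places in the 2 replicates or in 1 replicate only.

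**Figure D3:**
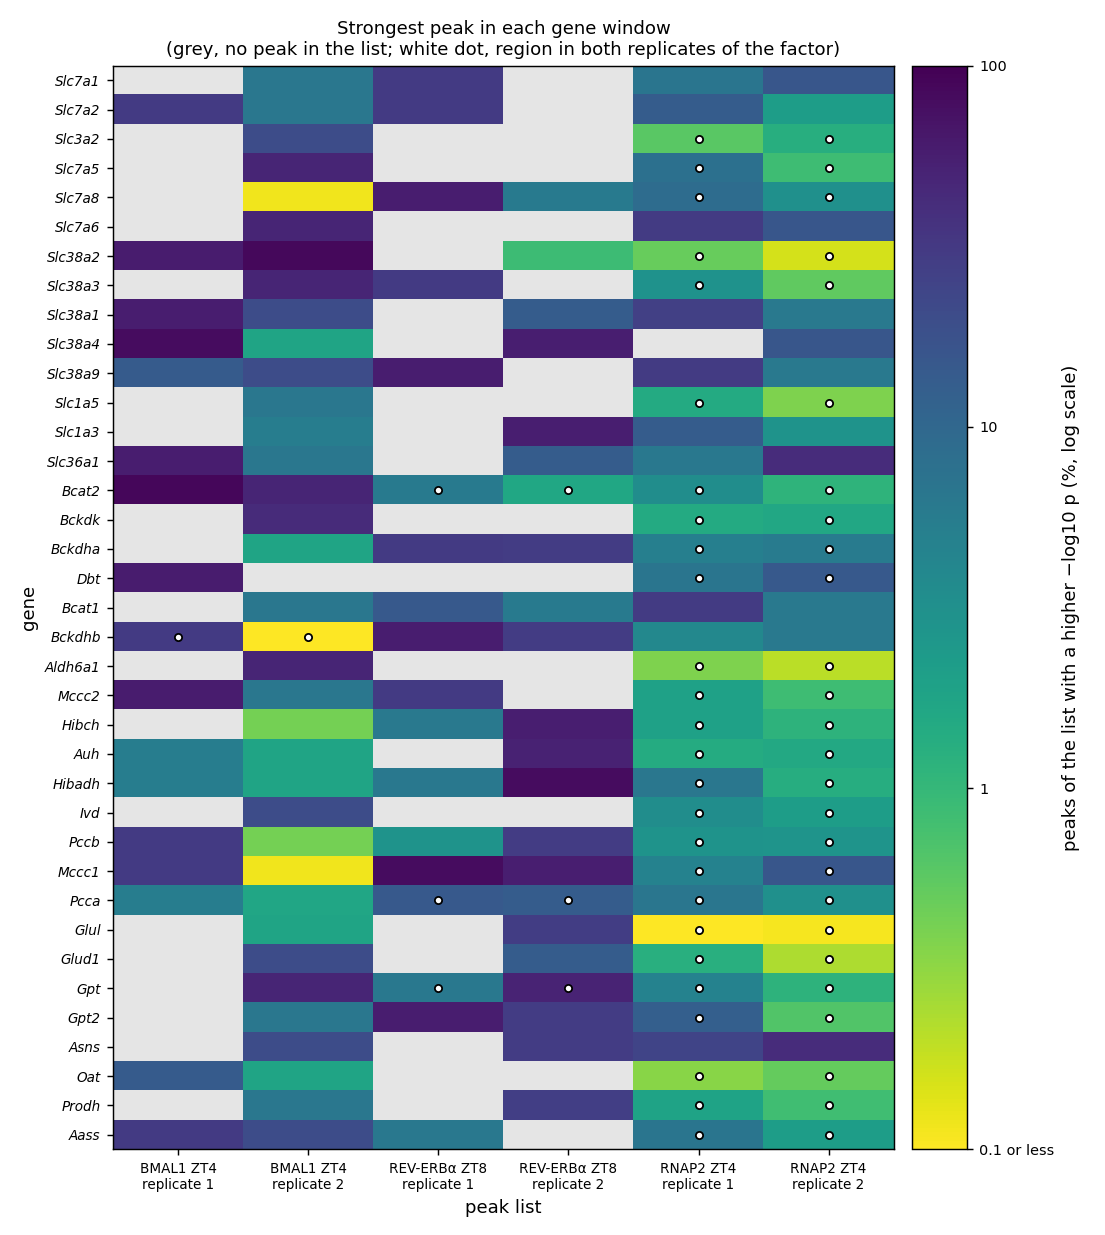
The strongest peak of each list in the window of each gene, coloured by the percentage of that list's peaks with a higher −log10 p on a logarithmic scale (yellow, among the strongest). Grey cells had no peak, and white dots mark genes with a region in both replicates of that factor, which need not hold the peak that gives the colour. The RNAP2 columns hold 26 dotted genes, REV-ERBα 3 (Bcat2, Gpt and Pcca) and BMAL1 1 (Bckdhb). Of the BMAL1 replicate 2 cells, Bckdhb, Slc7a8 and Mccc1 are the brightest.

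The summits of these regions were read for sequence, since they are the sites where a clock factor was found in both replicates. Each line gives up to 100 bases to each side of the stronger summit in GRCm38, on the strand of the gene, with any of the 4 motifs in capitals. For Gpt the annotated untranslated exon was left out. Slc38a2 is added for its strong peak in 1 list, and a BMAL1 peak of replicate 2 in Bckdhb for its strength and its E-box, both chosen after their values were seen.
Bcat2, REV-ERBα, chr7:45568095-45568295: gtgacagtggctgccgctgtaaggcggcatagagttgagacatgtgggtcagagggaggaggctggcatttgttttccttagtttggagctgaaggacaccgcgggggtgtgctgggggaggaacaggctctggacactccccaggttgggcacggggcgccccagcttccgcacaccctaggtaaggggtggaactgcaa
Gpt, REV-ERBα, chr15:76695565-76695715: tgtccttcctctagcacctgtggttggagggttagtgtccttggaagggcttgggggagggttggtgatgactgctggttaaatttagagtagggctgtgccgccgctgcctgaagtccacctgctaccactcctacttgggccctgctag
Pcca, REV-ERBα, chr14:122613730-122613930: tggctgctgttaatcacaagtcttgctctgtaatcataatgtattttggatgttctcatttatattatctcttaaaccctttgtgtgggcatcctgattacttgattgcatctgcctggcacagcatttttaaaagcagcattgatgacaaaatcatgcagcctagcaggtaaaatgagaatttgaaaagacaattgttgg
Bckdhb, BMAL1, chr9:84033337-84033537: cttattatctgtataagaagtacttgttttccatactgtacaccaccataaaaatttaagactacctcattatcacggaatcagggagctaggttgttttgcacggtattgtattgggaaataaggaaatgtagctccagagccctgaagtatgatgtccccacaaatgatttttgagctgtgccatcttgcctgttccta
Slc38a2, REV-ERBα replicate 2, chr15:96698974-96699174: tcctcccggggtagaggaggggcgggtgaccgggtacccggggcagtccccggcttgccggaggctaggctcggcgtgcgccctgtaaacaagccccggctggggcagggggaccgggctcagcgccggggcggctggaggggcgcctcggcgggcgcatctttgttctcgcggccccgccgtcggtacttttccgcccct
Bckdhb, BMAL1 replicate 2, chr9:84019396-84019596: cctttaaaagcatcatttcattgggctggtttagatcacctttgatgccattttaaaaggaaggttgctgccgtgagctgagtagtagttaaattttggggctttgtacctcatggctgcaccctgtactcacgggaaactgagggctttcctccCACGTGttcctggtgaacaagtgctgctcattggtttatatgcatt

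None of the 4 motifs was present within 100 bp of the summits of the 3 REV-ERBα regions or of the Bckdhb BMAL1 region. Over all 1263 REV-ERBα regions in both replicates, AGGTCA was present in 13.1%, CAGCTG in 12.4%, CACGTG in 3.4% and TGATGNAA in 3.01%. Over all 2742 BMAL1 regions the shares were 10.9%, 6.93%, 2.81% and 2.95% in the same order. The 6-letter patterns are short and leave out degenerate sites. The paper also reads GGGTCA as a putative monomer site, which was not searched here and occurs in the printed Bcat2 stretch. The Bckdhb peak of replicate 2 had its CACGTG 55 bp from the summit.

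At Bcat2 the REV-ERBα region, chr7:45567880-45568658, had values of 3.78 and 4.99 and fold enrichments of 2.71 and 3.24. Of the REV-ERBα lists, 5.87% and 1.63% of peaks were higher, and the q-value stayed above 0.05 in both. The summits lay 1783 and 1958 bp upstream of the nearest TSS, in the weak upstream RNAP2 region and not at the promoter where RNAP2 was strongest. BMAL1 peaks at Bcat2 were at most 1.58 and 1.87 and lay elsewhere.

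At Gpt the REV-ERBα region, chr15:76695257-76696437, had values of 3.02 and 2.59 and overlapped the strongest RNAP2 region. Its summits were 572 bp apart, 51 bp upstream of and 452 bp downstream of the nearest TSS, and 50.7% of the replicate 2 list was higher. Replicate 1 had a second peak of 3.57 1430 bp upstream. BMAL1 had no peak at Gpt in replicate 1 and peaks of 1.87 in replicate 2. At Pcca the region, chr14:122613487-122614067, lay in an intron 10911 bp from the nearest TSS with summits 10 bp apart. Its values were low, 2.50 and 2.15, and 56.3% of the replicate 2 list was higher. A BMAL1 peak of replicate 1, with a fold enrichment of 2.45 and 13.8% of the list higher, overlapped its edge and made it a shared site, while BMAL1 replicate 2 had none of its 39 Pcca peaks there. Elsewhere in its long window BMAL1 peaks reached 3.54 and 3.79, and REV-ERBα peaks 3.02 and 3.18, in replicates 1 and 2.

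At Bckdhb the BMAL1 region, chr9:84033285-84034303, was intronic with values of 2.00 and 2.15, exceeded by 80.3% and 46.1% of the lists. Its window held 5 BMAL1 peaks in replicate 1 and 24 in replicate 2. The strongest BMAL1 peak at any of the 37 genes was also in Bckdhb, at chr9:84019372-84019724, with 5.68 in replicate 2 and only 0.0377% of that list higher, but replicate 1 had no overlapping peak. For REV-ERBα, Bckdhb had 1 peak of 2.02 in replicate 1 and 3 of at most 2.64 in replicate 2, without overlap. In the same list Slc7a8 and Mccc1 each had an intronic peak of 4.95 that replicate 1 did not share.

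At Slc38a2 the REV-ERBα peak of replicate 2, chr15:96698828-96699480, was stronger than any REV-ERBα peak at the other 36 genes, with 6.61, a fold enrichment of 3.14 and a −log10 q of 2.16. Only 0.869% of that list was higher. It lay inside the strong promoter RNAP2 region, 383 bp from the nearest TSS. Replicate 1 had no REV-ERBα peak in the window, so the 2 replicates differed at this gene. BMAL1 had peaks of at most 2.01 and 1.40 within the gene body.

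The 7 genes with an RNAP2 strength of at least 10 (Glul, Slc38a2, Aldh6a1, Glud1, Slc1a5, Oat and Slc38a3) had 0 REV-ERBα and 0 BMAL1 regions in both replicates. Among the 1330 other genes with such strength, 19.2% had a REV-ERBα region and 13.7% a BMAL1 region. This subset was set after the values were seen. Among the 10 muscle fibre markers, 9 had a REV-ERBα and 8 a BMAL1 region. Their median RNAP2 strength, 23.77, was above the highest of the 7 genes, 22.61, and they had been planned to be read for RNAP2 only. With 7 genes, a share of 0 is a description of these genes.

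Further genes of amino acid metabolism, 76 found of 78 listed, were read the same way. RNAP2 was present in both replicates at 36 of them (47.4%, against 41.1% of all genes outside the 37), and at 28 within 1 kb of a TSS (36.8%, against 30.5%). By group these were 10 of 23 carriers, 9 of 13 enzymes of branched-chain oxidation, 13 of 31 other amino acid enzymes and 4 of 9 regulators. Strong RNAP2 regions were found at the methionine adenosyltransferase gene Mat2a (54.40 and 21.12), at Slc16a10, an aromatic amino acid carrier (25.57 and 14.81), and at the stress-response regulators Ddit3 (25.23 and 15.30) and Atf4 (24.62 and 18.18). Klf15, a regulator of branched-chain breakdown, had 11.19 and 9.97.

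REV-ERBα had regions in both replicates at 4 of the 76 (5.26%, against 4.44% of all genes outside the 37), Aldh4a1, Mat2a, Atf4 and Pycr1. At Aldh4a1, the dehydrogenase that follows Prodh in proline breakdown, the region lay at the TSS with values of 24.96 and 15.66. At Mat2a it had 20.80 and 23.12, also within 1 kb of the TSS. Both exceeded every REV-ERBα value at the 37 genes, where the highest was 6.61. At Atf4 the region had 5.49 and 3.61 and was the one shared site of the list, and at Pycr1, a proline synthesis enzyme, it had 4.15 and 3.45 more than 4 kb from the TSS. BMAL1 had regions at 4 (5.26%, against 6.82%), Slc7a11, Dld, Gls2 and Gatm, none with a strength above 2.40.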

How the data were processed

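The authors aligned ChIP-seq reads from gastrocnemius to mm10 with BWA 7.12 and removed duplicate and multi-mapping reads. By the paper's methods, the deeper replicate of each factor was then cut to about the read number of the other. Peaks were called on each sample against input with MACS2 2.1.1 with a p-value of 0.05 as the limit. The deposited lists give each peak's fold enrichment over input (a ratio), −log10 p and −log10 q, as the authors' run wrote them. Reads per peak were not used here, so the number of reads behind a single peak is unknown and no counting interval is given.

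Peaks were assigned to GENCODE M21 genes (GRCm38, the build of mm10). Sequences came from RefSeq GRCm38. Python 3.11.15, numpy 2.4.6 and pysam 0.24.0 were used, and the code was tested on simulated peaks. Members and gene lists were chosen with earlier results of these data known. Values in every list are given for genes with a REV-ERBα or BMAL1 region in both replicates or a shared site, the 10 strongest RNAP2 genes, genes without an RNAP2 region, Slc7a2 and Slc38a2. The other members are given by their RNAP2 values. Alternatives changed the gene window, −log10 p and q minimum, list length, overlap rule and replicates.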

Additional observations from a re-analysis of the deposited data

How the results depend on the processing

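The count of genes with RNAP2 in both replicates, and that at a promoter, stayed within 1.5 times of 26 and 23 under every alternative run. With only replicate 1 or only replicate 2 they ranged from 36 to 37 and from 30 to 31, but 76.9% to 86.4% of the other genes were then called over the window and 47.9% to 49% at a promoter. The REV-ERBα count of 3 fell to 1 within 1 kb of a TSS. It fell to 1 when −log10 p had to reach 3 in both lists, and to 0 with a −log10 q of at least 1.3. The share of the 9001 other genes with RNAP2 fell as well, from 8.49% to 4.17%, 5.07% and 2.79% in the same order. With a single replicate the count ranged from 18 to 22, against 49.8% to 52.7% of the 9001. The BMAL1 count of 1 became 0 within 1 kb of a TSS, with the −log10 p or −log10 q minimum and with lists of equal size. The share of the 9001 fell from 10.3% to 1.44%, 0.733%, 0.267% and 3.14% in the same order. The count also became 0 with summits within 250 bp and with an overlap of at least 50% of the shorter peak, against 6.12% and 7.21%. With a single replicate it ranged from 17 to 36, against 48.3% to 93.1% of the 9001. The shared site at Pcca was lost (0) within 10 kb or 1 kb of a TSS only, with either minimum, with summits within 250 bp and with the 50% overlap. Under these rules between 0.367% and 2.5% of the 9001 had a shared site, against 3.03% as reported. The count ranged from 0 to 1 when 1 list was left out, against 1.37% to 1.81% of the 9001. The site at Pcca then remained without BMAL1 replicate 2 only. Among alternatives added after seeing the data, genes with an RNAP2 strength of at least 10 gave 0 for REV-ERBα and 0 for BMAL1, against 19.2% and 13.7% of the 1330 others. Genes with RNAP2 and a window of at most 50 kb gave 2 of 17 for REV-ERBα and 0 of 17 for BMAL1. Among the 5665 others of that kind the shares were 8.61% and 5.12%. With 150 bp to each side of a summit, AGGTCA was present in 1 of the 3 REV-ERBα regions, that of Gpt. With summits within 250 bp, RNAP2 at Glud1 and Mccc1, REV-ERBα at Gpt and BMAL1 at Bckdhb lost their region, the RNAP2 strength of Gpt became 3.97 and that of Gpt2 fell from 4.42 to 2.68, less than the spread of its replicates. With 10 kb around TSSs only, RNAP2 and REV-ERBα at Pcca and RNAP2 at Aass lost their region, and the RNAP2 strength of Prodh became 4.79. The cause of these changes was not tested beyond each rule's own construction. No paired analysis was possible because the results come from no test. The coarse −log10 p values and the absence of read counts limit the ordering of weak peaks.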
